A study of Mus musculus with 9 samples.

Results

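The 8 genes described here encode members of the BCL2 family (Bcl2a1b, Bcl2a1d, Bcl2l1, Bcl2l11 and Pmaip1), the death receptor Fas, the caspase-8 inhibitor Cflar and the stress-response gene Gadd45a. They were taken by gene symbol from a deposited table of 6462 genes, and all 8 were found. The table gives FPKM, fragments scaled to the length of the transcript and the size of the library, for BV2 cells, an immortalized mouse microglial line. There were 3 libraries of untreated cells (0 h), 3 of cells given LPS (200 ng/ml) for 1 h and 3 of cells given LPS for 12 h. LPS, the endotoxin of Gram-negative bacteria, activates Toll-like receptor 4. Untreated cells stand only at 0 h, so the effects of LPS and of time in culture cannot be told apart. All groups come from a single cell line, and whether its 3 libraries per group were separate cultures is not given, so p-values rest on a spread that may be technical. In bulk RNA a change in every cell and a change in the share of cells that express a gene cannot be told apart either.

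All listed genes had a deposited q-value of at most 0.09993, so the table holds genes selected on a difference among these samples, and a member's presence in it is no finding. FPKM was compared as log2(FPKM + 1) with limma over the 5643 genes whose mean FPKM was at least 1, and a gene was called at an adjusted p under 0.05. All 8 members passed that filter. Fas passed only just, with a mean of 1.01 FPKM over the 9 libraries and 0.144 FPKM in untreated cells, and therefore through the LPS groups where it was higher. Gadd45a, at 0.987 FPKM in untreated cells and a mean of 4.38 over the 9 libraries, also passed through the LPS groups. A gene that passes in this way had to differ, so the tests of Fas and Gadd45a, and their places in the counts of called members, carry that limit. A wider limit holds for all 8 members and for the shares of called genes. Their adjusted p-values come from the libraries that had already served to choose the listed genes. Those p-values are therefore not independent of that choice, and adjustment over the tested genes does not correct for it. Libraries of a group correlated at 0.9981 to 0.9986 across genes. Listed genes summed to 195872 to 198075 FPKM per untreated library, to 203515 to 205413 per 1 h library and to 223720 to 228207 per 12 h library. Of 16 microglia and macrophage markers 11 were in the table. In untreated cells Tyrobp stood at 559.8 FPKM, Cd68 at 391, Trem2 at 90.5, Csf1r at 66.1 and Cx3cr1 at 6.27. P2ry12 (1.24) and C1qa (0.628) were near the floor. Of 6 neuron markers Syn1 was listed, at 2.504 FPKM in untreated cells, and of 6 oligodendrocyte markers Olig2, at 0.028. No marker of astrocytes, endothelium or fibroblasts was in the table. Because only genes with a difference are listed, a marker that is expressed but unchanged would also be absent, so absence does not show lack of expression.

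BCL2 family proteins decide whether the mitochondrial outer membrane is opened during apoptosis. Survival members such as BCL-XL (Bcl2l1) and A1 (the Bcl2a1 genes) hold back the pore-forming proteins BAX and BAK, and BH3-only members such as BIM (Bcl2l11) and NOXA (Pmaip1) bind the survival members and release that block. Death receptors such as FAS start a second route through the adaptor FADD and caspase-8, which c-FLIP (Cflar) restrains. In macrophages and microglia the survival genes are known targets of NF-κB, the factor that LPS activates.

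The genes split by time. At 1 h, 7 of the 8 were higher than in untreated cells and Bcl2l1 did not pass the test. Over all tested genes 59% were called at 1 h, 24.1% higher and 34.9% lower. At 12 h, 7 of the 8 were higher than in untreated cells and Pmaip1 was lower, where 81.7% of all tested genes were called, 41.1% higher and 40.6% lower. Between the LPS times 4 rose (Bcl2a1b, Bcl2a1d, Bcl2l1 and Gadd45a) and 4 fell (Cflar, Bcl2l11, Pmaip1 and Fas). In that comparison 85.5% of all tested genes were called, 41.9% higher and 43.6% lower. Among these 8, the BH3-only genes and the death receptor gene were thus highest at 1 h and the BCL2 survival genes at 12 h. Cflar, which blocks death receptor signaling, also peaked at 1 h. The split did not extend to all genes of these kinds outside the 8. The survival gene Mcl1 had its highest mean at 1 h. The BH3-only genes Bmf and Bid had their lowest mean at 1 h, while BH3-only Bbc3 had its highest then. Both contrasts with untreated cells share the same 3 untreated libraries. The members were chosen with results of these data known, so these counts describe them.

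**Figure D1:**
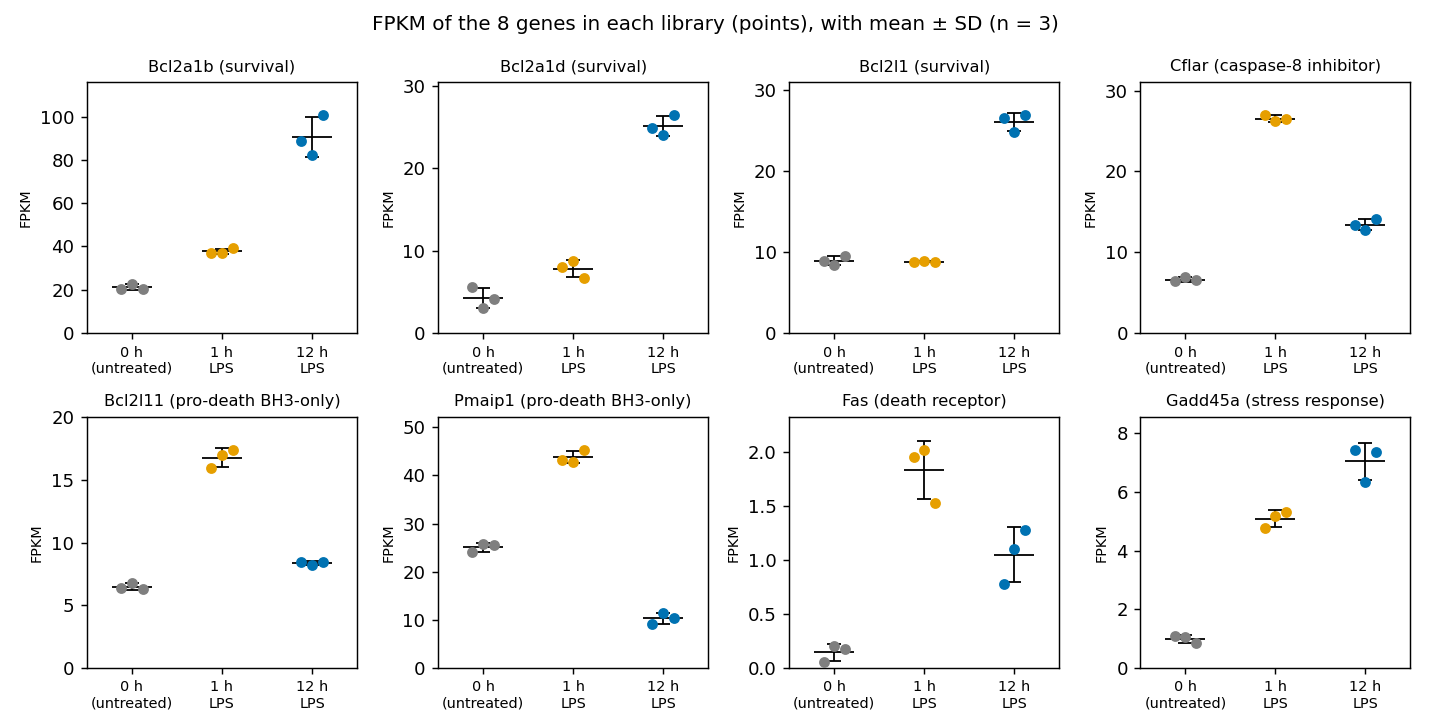
FPKM of the 8 genes (vertical axes, each starting at 0) in each of the 3 libraries at 0 h (untreated), 1 h and 12 h of LPS; points are libraries, and horizontal bars with whiskers are the mean ± SD (n = 3). Cflar, Bcl2l11, Pmaip1 and Fas peak at 1 h, Bcl2a1b, Bcl2a1d, Bcl2l1 and Gadd45a at 12 h, and Pmaip1 at 12 h lies below its untreated libraries.

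Bcl2a1b and Bcl2a1d encode A1, a short-lived survival protein of blood cells, in copies that in the mouse arose by duplication. Bcl2a1b stood at 20.3, 22.7 and 20.3 FPKM in the untreated libraries, 37.2, 36.7 and 39.1 at 1 h and 88.5, 82.2 and 100.7 at 12 h. The 3 groups did not overlap, and every step was upward. On the log2 scale it was 0.81 ± 0.06 (SE) higher than in untreated cells at 1 h (limma, adjusted p = 6.45e-08) and 2.05 ± 0.06 at 12 h (limma, adjusted p = 6.71e-13). Bcl2a1d stood at 5.54, 3.06 and 4.14 FPKM in the untreated libraries, 8.04, 8.69 and 6.66 at 1 h and 24.9, 24.0 and 26.4 at 12 h. It too rose at each time without overlap, by 0.77 ± 0.13 at 1 h (limma, adjusted p = 0.000146) and 2.34 ± 0.13 at 12 h (limma, adjusted p = 3.93e-10). A further copy, Bcl2a1a, was listed at a mean of 0.168 ± 0.0781 FPKM in untreated cells, 0.358 ± 0.215 at 1 h and 1.01 ± 0.439 at 12 h (SD, n = 3) and lay below the filter on level, so it was not tested alone.

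The copies are hard to tell apart by sequence. In the GENCODE M21 transcripts, Bcl2a1b and Bcl2a1d differ at 7 of 817 aligned bases, Bcl2a1b and Bcl2a1a at 15 of 817, and Bcl2a1d and Bcl2a1a at 10 of 819. Of all stretches of 100 bases, 31.1% of those in Bcl2a1b, 54.7% of those in Bcl2a1d and 43.5% of those in Bcl2a1a occur unchanged in another copy, so how reads were divided between copies bears on each value. The read length and the treatment of shared reads are not given in the sources used here. The sum of the 3 listed copies depends less on how shared reads were divided between them, although it would change if such reads were discarded or counted more than once, and the copies differ in length. It was 25.9, 26.0 and 24.7 FPKM in the untreated libraries, 45.4, 45.8 and 46.4 at 1 h and 114, 107 and 129 at 12 h. On the log2 scale the sum rose by 0.82 ± 0.05 at 1 h (limma, adjusted p = 6.16e-09) and 2.15 ± 0.05 at 12 h (limma, adjusted p = 5.07e-14). In untreated cells the SD of the sum (0.695 FPKM) was smaller than that of Bcl2a1b (1.41) or Bcl2a1d (1.24), and the untreated library with the most Bcl2a1b had the least Bcl2a1d. The same held at 1 h, where the SD of the sum was 0.489 FPKM, against 1.26 for Bcl2a1b and 1.04 for Bcl2a1d. At 12 h the SD of the sum (11.1) was not smaller than that of Bcl2a1b (9.41).

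Bcl2a1a gives a view of the counts behind these values. Its 9 FPKM values lie within 0.0344 of whole multiples of a single step once the libraries are scaled by relative depths of 1 to 1.17. The depths were estimated from 23 of 59 other low genes examined, kept because their own values lay near whole multiples of a step. The step of Bcl2a1a was itself chosen for the best fit. The multiples for Bcl2a1a are 1, 2 and 3 in the untreated libraries, 2, 4 and 7 at 1 h and 13, 7 and 17 at 12 h. If a step is 1 fragment and is scaled by transcript length, Bcl2a1d would rest on about 64, 38.7 and 53.1 fragments in the untreated libraries and Bcl2a1b on about 222, 272 and 247. The wider relative spread of Bcl2a1d in untreated cells goes with those smaller counts, whose part in it was not tested.

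**Figure D2:**
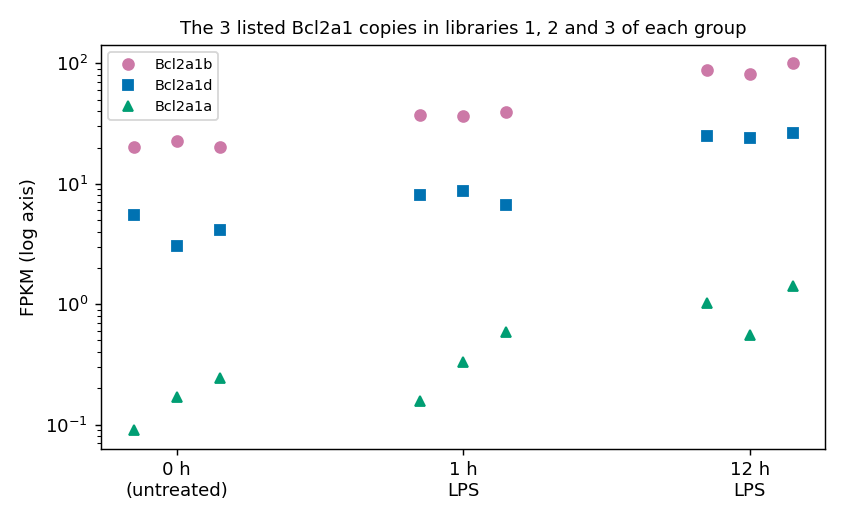
FPKM on a log axis of the 3 listed Bcl2a1 copies in libraries 1, 2 and 3 (left to right) at 0 h (untreated), 1 h and 12 h of LPS. Bcl2a1b lies between 20.3 and 100.7 FPKM, Bcl2a1d between 3.06 and 26.4 and Bcl2a1a between 0.0898 and 1.43; Bcl2a1b and Bcl2a1d are highest in the 12 h libraries without overlap, while a 12 h library of Bcl2a1a (0.553) lies below its highest 1 h library (0.584).

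The promoters of these copies, from RefSeq on GRCm38.p6, are shown because they are nearly the same while the levels of the copies differ widely. Each window runs from 250 bases before the annotated start to 50 after it, 5′ to 3′ on the strand of the gene. Capitals mark, in order, a match to the AP-1 motif TGANTCA and a match to the C/EBP-ATF motif TGATGNAA, which was chosen after these sequences had been read. The motifs do not overlap.
Bcl2a1b, chr9:89199023-89199322, plus strand: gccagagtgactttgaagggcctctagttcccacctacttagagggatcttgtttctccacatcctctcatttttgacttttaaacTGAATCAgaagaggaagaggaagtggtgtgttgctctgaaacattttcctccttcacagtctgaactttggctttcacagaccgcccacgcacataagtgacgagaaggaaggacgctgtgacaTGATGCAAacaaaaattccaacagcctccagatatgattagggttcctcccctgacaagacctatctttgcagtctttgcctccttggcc
Bcl2a1d, chr9:88731801-88732100, minus strand: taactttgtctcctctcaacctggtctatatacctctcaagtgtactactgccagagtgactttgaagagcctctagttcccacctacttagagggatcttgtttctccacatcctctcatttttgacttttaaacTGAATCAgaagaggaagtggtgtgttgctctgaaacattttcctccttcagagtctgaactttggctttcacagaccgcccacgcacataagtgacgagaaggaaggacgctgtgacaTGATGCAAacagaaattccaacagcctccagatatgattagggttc
Bcl2a1a, chr9:88956670-88956969, plus strand: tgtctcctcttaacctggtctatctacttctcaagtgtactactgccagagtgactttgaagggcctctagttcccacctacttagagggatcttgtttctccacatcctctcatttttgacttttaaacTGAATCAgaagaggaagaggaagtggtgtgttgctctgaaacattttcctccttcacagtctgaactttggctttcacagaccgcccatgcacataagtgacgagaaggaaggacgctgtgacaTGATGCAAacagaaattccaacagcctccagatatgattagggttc
Aligned to each other, the Bcl2a1b and Bcl2a1d windows differ at 3 of 250 bases, apart from 6 gap bases, and the Bcl2a1b and Bcl2a1a windows at 2 of 256. All 3 hold both motifs. Searched on both strands of 32851 promoters of the same length, TGANTCA occurs in 7.81% and TGATGNAA in 3.97%. The annotated starts differ: the C/EBP-ATF match begins 40 bases upstream of the start in Bcl2a1b and 4 bases downstream of it in Bcl2a1d and Bcl2a1a. None of the 3 windows holds a match to the κB motif, which occurs in 8.46% of promoters.

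Bcl2l1 encodes BCL-XL, the long-lived survival protein that holds back BAX and BAK. It stood at 8.90, 8.42 and 9.48 FPKM in the untreated libraries, 8.76, 8.87 and 8.84 at 1 h and 26.5, 24.8 and 26.9 at 12 h. The 1 h libraries all lay inside the untreated range, and all 12 h libraries lay far above both. At 1 h the log2 difference was -0.01 with a 95% confidence interval of -0.11 to 0.08 (limma, adjusted p = 0.804), an interval that holds none of the early differences of the other 7 genes. The sign of this small value turned under quantile normalization (0.00586) and without untreated library 3 (0.0247). At 12 h Bcl2l1 was 1.45 ± 0.05 higher than in untreated cells (limma, adjusted p = 1.23e-12), 2.92 times the untreated mean FPKM.

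RefSeq lists 3 starts for Bcl2l1, and the window of the middle one in the table is shown because it alone, of the 11 windows searched for 7 members and Bcl2a1a, holds a match to the κB motif (capitals), which begins 242 bases upstream of the start.
Bcl2l1, GRCm38.p6 chr2:152830668-152830967, minus strand: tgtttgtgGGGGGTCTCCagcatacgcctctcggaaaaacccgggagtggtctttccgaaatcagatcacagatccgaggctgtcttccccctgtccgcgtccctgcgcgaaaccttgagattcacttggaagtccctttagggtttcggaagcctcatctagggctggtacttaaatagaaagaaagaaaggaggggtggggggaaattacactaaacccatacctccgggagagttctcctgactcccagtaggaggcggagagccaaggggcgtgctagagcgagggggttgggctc
The other 2 windows of Bcl2l1, the windows of Cflar and Gadd45a and both windows of Bcl2l11 held none of the 3 motifs.

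Cflar encodes c-FLIP, which resembles caspase-8 and takes its place at activated death receptors. It stood at 6.42, 6.92 and 6.51 FPKM in the untreated libraries, 27.0, 26.2 and 26.4 at 1 h and 13.3, 12.8 and 14.1 at 12 h. The groups did not overlap. Cflar rose by 1.86 ± 0.04 on the log2 scale at 1 h (limma, adjusted p = 5.67e-14), the largest early difference of the 8 genes with a pseudocount of 1, and was 0.92 ± 0.04 higher than in untreated cells at 12 h (limma, adjusted p = 8.36e-11). Of the increase in mean FPKM seen at 1 h, 34% was left at 12 h. The difference between 12 h and 1 h was -0.94 ± 0.04 (limma, adjusted p = 7.44e-11).

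Bcl2l11 encodes BIM, a BH3-only protein that binds all survival members of the family. It stood at 6.38, 6.80 and 6.27 FPKM in the untreated libraries, 15.9, 17.0 and 17.4 at 1 h and 8.46, 8.18 and 8.45 at 12 h. It rose by 1.25 ± 0.05 at 1 h (limma, adjusted p = 1.03e-11), and at 12 h it was still 0.32 ± 0.05 higher than in untreated cells (limma, adjusted p = 1.05e-05), with 18.2% of the early increase left. The 12 h libraries lay above every untreated library, but by little.

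Pmaip1 encodes NOXA, a BH3-only protein that binds the survival proteins MCL-1 and A1 and is named for its induction by phorbol ester. It stood at 24.1, 25.7 and 25.5 FPKM in the untreated libraries, 43.3, 42.9 and 45.3 at 1 h and 9.13, 11.4 and 10.3 at 12 h. It was the only member that moved in opposite directions at the LPS times: all 1 h libraries lay above and all 12 h libraries below the untreated ones. On the log2 scale it lay 0.78 ± 0.06 above untreated cells at 1 h (limma, adjusted p = 4.49e-08), and its difference from them was -1.22 ± 0.06 at 12 h (limma, adjusted p = 9.49e-11). Between 12 h and 1 h it was -2.0 ± 0.06 (limma, adjusted p = 5.61e-13), the largest difference between the LPS times among the 8 genes. The 12 h mean was 0.409 of the untreated mean and 0.234 of the 1 h mean.

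Fas encodes the receptor through which FAS ligand starts apoptosis. It was the lowest of the members at every time, at 0.0544, 0.203 and 0.174 FPKM in the untreated libraries, 1.96, 2.02 and 1.53 at 1 h and 0.772, 1.099 and 1.27 at 12 h. The groups did not overlap, although the highest 12 h library and the lowest 1 h library lay close together. With a pseudocount of 1 it exceeded untreated cells by 1.31 ± 0.10 at 1 h (limma, adjusted p = 4.40e-08) and 0.84 ± 0.10 at 12 h (limma, adjusted p = 1.46e-06). The pseudocount holds these values down: with 0.1 they were 3.04 and 2.27, and the ratio of mean FPKM was 12.8 at 1 h and 7.29 at 12 h. The 12 h level was 0.47 ± 0.10 lower than the 1 h level (limma, adjusted p = 0.000376; -0.77 with a pseudocount of 0.1). The window at the start of Fas is shown because, like the Bcl2a1 windows, it holds an AP-1 match (capitals). The match begins 211 bases upstream of the start in Fas, against 164 in Bcl2a1b, 114 in Bcl2a1d and 120 in Bcl2a1a.
Fas, GRCm38.p6 chr19:34290409-34290708, plus strand: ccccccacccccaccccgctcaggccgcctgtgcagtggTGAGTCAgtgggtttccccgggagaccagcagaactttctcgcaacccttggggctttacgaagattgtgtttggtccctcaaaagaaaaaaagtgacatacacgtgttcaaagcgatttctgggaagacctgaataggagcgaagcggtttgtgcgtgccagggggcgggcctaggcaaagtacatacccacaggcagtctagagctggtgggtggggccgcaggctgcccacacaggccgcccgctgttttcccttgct

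Gadd45a encodes a small protein that is induced by DNA damage and other stress, binds PCNA and CDK1 and activates a kinase upstream of p38 and JNK. It stood at 1.07, 1.055 and 0.836 FPKM in the untreated libraries, 4.78, 5.19 and 5.31 at 1 h and 7.44, 6.33 and 7.36 at 12 h. It rose by 1.62 ± 0.07 at 1 h (limma, adjusted p = 5.94e-11) and 2.02 ± 0.07 at 12 h (limma, adjusted p = 2.19e-12). Most of the rise was thus present at 1 h, and the step from there to 12 h was 0.40 ± 0.07 (limma, adjusted p = 7.38e-05). In mean FPKM the 12 h level was 7.14 times and the 1 h level 5.16 times the untreated level.

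**Figure D3:**
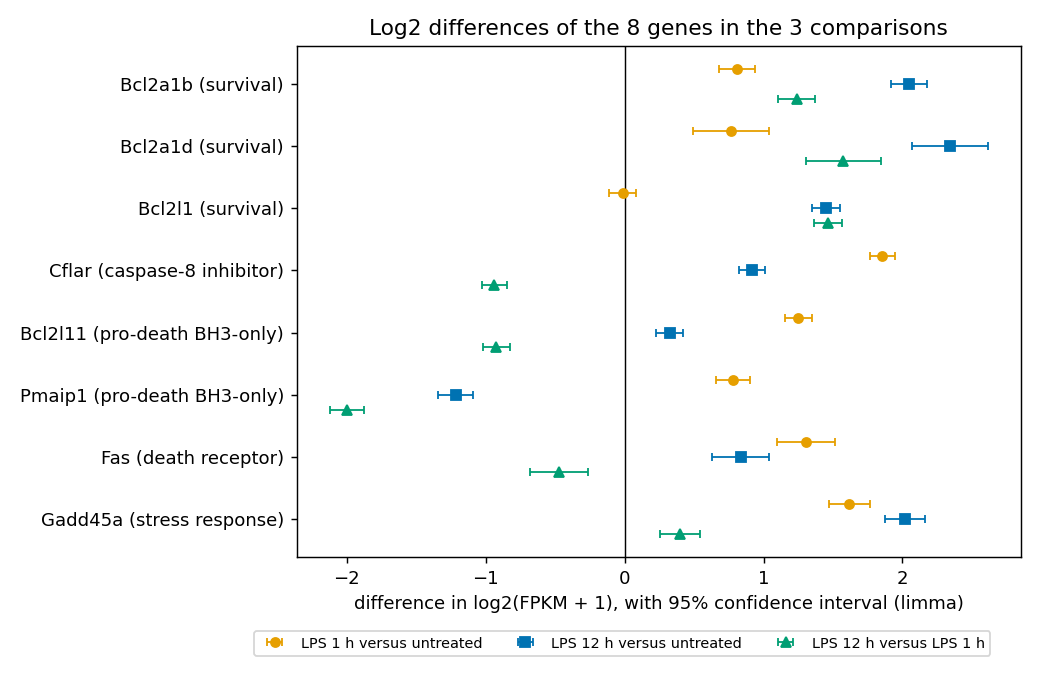
Difference in log2(FPKM + 1) (horizontal axis) for each of the 8 genes in the 3 comparisons, with 95% confidence intervals from limma. The interval of Bcl2l1 at 1 h spans 0 (-0.11 to 0.08), Pmaip1 lies at 0.78 at 1 h and -1.22 at 12 h, and the comparison of 12 h with 1 h (triangles) separates 4 genes above 0 from 4 below.

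The order of the members by level changed with time. FPKM is per length, so levels can be compared between genes. In untreated cells the order was Pmaip1 (25.1 FPKM), Bcl2a1b (21.1), Bcl2l1 (8.93), Cflar (6.62), Bcl2l11 (6.49), Bcl2a1d (4.25), Gadd45a (0.987) and Fas (0.144), where only Cflar and Bcl2l11 overlapped among neighbours. At 1 h Pmaip1 (43.9) and Bcl2a1b (37.7) still led, and Cflar (26.6) and Bcl2l11 (16.8) stood above Bcl2l1 (8.83), with no overlap between neighbours. At 12 h Bcl2a1b (90.5) led, Bcl2l1 (26.1) and Bcl2a1d (25.1) overlapped in the next places, and Pmaip1 (10.3) stood below Cflar (13.4), with Bcl2l11 (8.37) below both.

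Ratios within a library do not depend on how libraries are scaled. The ratio of Bcl2l1 to Bcl2l11 was 1.39, 1.24 and 1.51 in the untreated libraries, 0.549, 0.522 and 0.508 at 1 h and 3.14, 3.03 and 3.19 at 12 h. Transcripts of BCL-XL were thus fewer than those of BIM, per length, in all 3 libraries at 1 h and more numerous in the other 6. The ratio of Bcl2l1 to Pmaip1 averaged 0.357 ± 0.0253 in untreated cells, 0.201 ± 0.00595 at 1 h and 2.57 ± 0.366 at 12 h (SD, n = 3). The summed Bcl2a1 copies and Pmaip1 rose together at 1 h: their ratio was 1.02 ± 0.0534 in untreated cells, 1.046 ± 0.0222 at 1 h and 11.5 ± 1.81 at 12 h (SD, n = 3). The ratio of Cflar to Fas spanned 34.1 to 118 in untreated libraries, 12.99 to 17.3 at 1 h and 11.1 to 17.3 at 12 h, and the wide range in untreated cells comes with the low Fas level there (its mean was 63.2, and 35.8 without untreated library 1). These ratios are descriptions of chosen pairs and were not tested.

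**Figure D4:**
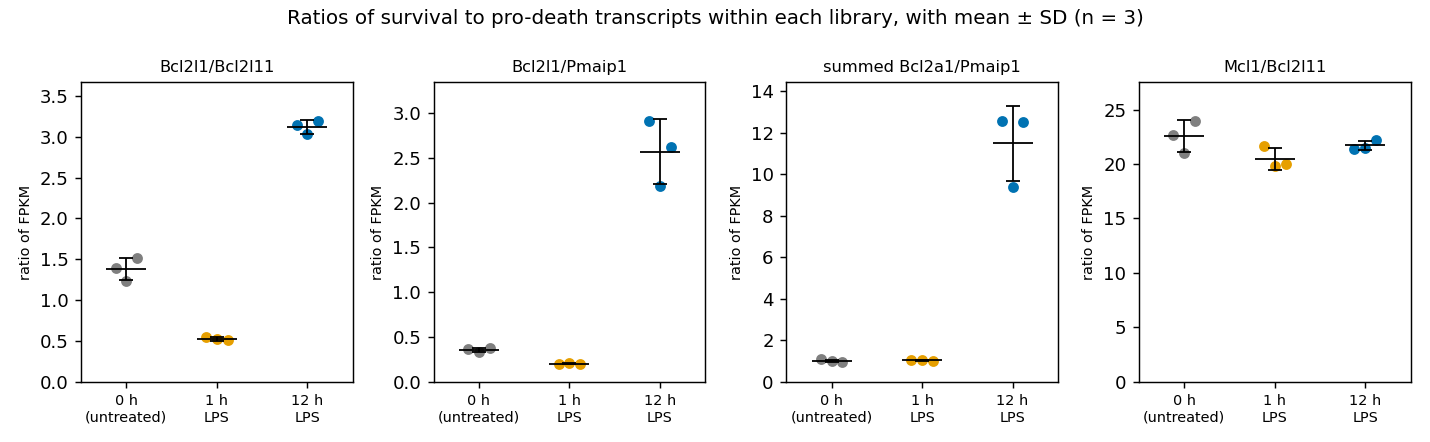
Ratios of FPKM within each library (vertical axes, starting at 0) at 0 h (untreated), 1 h and 12 h of LPS; points are libraries and bars with whiskers the mean ± SD (n = 3). The ratios of Bcl2l1 to Bcl2l11, Bcl2l1 to Pmaip1 and the summed Bcl2a1 copies to Pmaip1 are highest at 12 h. Mcl1 to Bcl2l11, a ratio added after its values were seen, lies between 19.8 and 23.9 in all 9 libraries. Mcl1 was among the 3 genes closest in profile to Bcl2l11 over these libraries, so a steady ratio follows from that choice.

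Among 4348 other named genes with a mean of at least 5 FPKM, those closest to each member were found by the root mean square difference between profiles of log2(FPKM + 1) over the 9 libraries, each centred on its own mean. For Bcl2l11 they were Ier5 (0.0482), Mcl1 (0.0536) and Chka (0.0597). Mcl1 encodes MCL-1, a survival protein to which BIM and NOXA bind, and its ratio to Bcl2l11 was 22.6 ± 1.46 in untreated cells, 20.5 ± 1.01 at 1 h and 21.7 ± 0.429 at 12 h (SD, n = 3), a ratio added after its values were seen. Its ratio to Pmaip1 was 5.82 ± 0.241 in untreated cells, 7.84 ± 0.146 at 1 h and 17.9 ± 2.20 at 12 h (SD, n = 3). The profiles closest to Bcl2l1 were those of Phf11d (0.0463), Parp14 (0.0618) and Ube2l6 (0.0637), and those closest to Cflar were Nfkbid (0.0923), Slc20a1 (0.118) and Dusp16 (0.129). For Bcl2a1b they were Tnip1 (0.107), Plaur (0.143) and Tnfrsf1b (0.155), and for Bcl2a1d Cebpd (0.189), Socs3 (0.196) and Casp4 (0.245). For Gadd45a they were Cd14 (0.076), the LPS co-receptor gene, Ehd1 (0.210) and Rab20 (0.224), and for Fas Fosl2 (0.136), Dusp5 (0.151) and Mdm2 (0.155). Pmaip1 had the least close neighbours, Pnrc1 (0.245), Clec7a (0.274) and Plau (0.287).

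Other genes of the same pathways were taken from lists of 136 genes, of which 128 are not members, 85 of these were in the table and 80 were tested. At 1 h, 35 of the 80 rose and 27 fell, with a median log2 difference of 0.06, against -0.03 over all tested genes. At 12 h, 45 rose and 23 fell, with a median of 0.16, against 0.03 over all tested genes. Of the genes that the deposited table itself annotates to apoptosis, 75 besides the members were tested: 19 rose and 31 fell at 1 h, and 38 rose and 24 fell at 12 h. Over all tested genes 24.1% rose and 34.9% fell at 1 h, and 41.1% rose and 40.6% fell at 12 h. Of the 201 calls made for pathway genes over the 3 comparisons, 178 held in every alternative that tested the gene. Another 23 were lost in at least 1, and none changed sign. Genes that averaged under 5 FPKM, such as Traf1 and Bbc3, dropped out of the alternative with a filter at 5 FPKM. Their calls were not checked there.

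Among other survival members of the family, Mcl1 was the most abundant, at 146 ± 3.57 FPKM in untreated cells, 344 ± 5.96 at 1 h and 182 ± 5.78 at 12 h (SD, n = 3), and rose by 1.23 at 1 h and 0.31 at 12 h. Bcl2l2, which encodes BCL-W, did not pass either test against untreated cells (-0.07 at 1 h and 0.09 at 12 h). Of the pore-forming proteins, Bax was not called at 1 h (0.02) and rose by 0.32 at 12 h, and Bak1 fell by 0.16 at 1 h and rose by 0.18 at 12 h, a late call lost in 1 alternative. The 3 other tested BH3-only genes did not move as one: at 1 h Bbc3, which encodes PUMA, rose by 0.65, Bid fell by 0.29 and Bmf fell by 1.04. At 12 h Bbc3 was 0.43 higher and Bmf 0.84 lower than in untreated cells, while Bid (0.03) did not pass. Bnip3 and Bnip3l, BCL2-related genes of mitophagy, fell by 0.99 and 0.37 at 1 h and by 0.77 and 0.42 at 12 h.

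On the receptor side, Tnfrsf1a, which encodes the main TNF receptor with a death domain, fell by 0.33 at 1 h and by 0.11 at 12 h, a late call lost in 4 alternatives. Tnfrsf21, which encodes death receptor 6, rose by 0.31 at 1 h and 0.25 at 12 h. The ligand gene Tnf rose by 4.59 at 1 h and 3.88 at 12 h. Of 11 tested genes of the TNF receptor complex, 6 rose and 3 fell at 1 h, and 6 rose and 2 fell at 12 h. Tnfaip3, which encodes the ubiquitin-editing protein A20, rose by 2.77 at 1 h and 1.27 at 12 h, Traf1 by 1.84 and 1.93, Tnip1 by 1.02 and 2.14, and Birc3, which encodes the ligase cIAP2, by 1.08 and 0.55. Birc2, which encodes cIAP1, fell by 0.20 at 1 h, a call lost in 2 alternatives, and by 0.41 at 12 h. Mlkl, the executor of necroptosis, fell by 0.15 at 1 h and rose by 0.87 at 12 h.

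Of 6 tested caspase genes 5 fell and 1 rose at 1 h. Those that fell included Casp9 (-0.49), which starts the mitochondrial route, Casp2 (-0.36), Casp6 (-0.30) and Casp8 (-0.15), and Casp4, an inflammatory caspase that binds intracellular LPS, rose by 0.59. At 12 h 3 rose and 3 fell, among them Casp4 (2.14), Casp8 (0.13), Casp6 (-0.84) and Casp2 (-0.56). Casp9 (-0.11) also fell at 12 h, a call lost in 7 alternatives. Of 4 tested genes of the apoptosome and mitochondrial release, 3 rose at 12 h. They were Cycs (0.39), which encodes cytochrome c, Apaf1 (0.15) and Diablo (0.13), and the call of Diablo was lost in 4 alternatives. Endog fell by 0.60 at 12 h. Of 6 tested genes of inhibitors of apoptosis, 1 rose and 4 fell at 1 h, and 2 rose and 3 fell at 12 h; Birc5, which encodes survivin, fell by 0.19 and 0.50.

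The relatives of Gadd45a did not follow it at 1 h. Gadd45b fell by 0.45 at 1 h and rose by 0.37 at 12 h, and Gadd45g fell by 1.051 at 1 h and by 0.38 at 12 h, the last a call lost in 1 alternative. Fas, Pmaip1 and Gadd45a are known targets of p53. Of 18 other tested genes of p53 and its targets, 9 rose and 4 fell at 1 h, and 11 rose and 4 fell at 12 h. Trp53 itself rose by 0.32 at 1 h, and its 12 h value of -0.01 did not pass. At 1 h Gdf15 (3.91), Plk2 (3.11), Btg2 (2.40) and Plk3 (1.38) rose most and Sesn1 (-0.50) fell most, while at 12 h Gdf15 (3.74), Plk2 (1.55) and Plk3 (1.48) were highest and Sesn1 (-1.60) and Ddb2 (-0.98) lowest. Mdm2, which encodes the ligase that degrades p53, rose by 1.23 at 1 h and 0.97 at 12 h. Cdkn1a, which encodes the cell cycle inhibitor p21, was not called at 1 h (-0.01) and rose by 0.67 at 12 h.

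Of 17 tested genes for transcription factors known to act on the members, 13 rose and 3 fell at 1 h, and 11 rose and 3 fell at 12 h. The NF-κB subunit genes Relb (1.53), Rel (1.40) and Nfkb2 (1.09) rose at 1 h, as did Atf3 (2.12), Jun (1.21) and Myc (1.11). At 12 h the factors of the integrated stress response Ddit3 (1.78) and Atf4 (1.26) were among the highest, with Relb (1.13). Those that fell were the FOXO genes: Foxo1 (-0.33), Foxo3 (-0.29) and Foxo4 (-0.19, a call lost in 3 alternatives) at 1 h, and Foxo1 (-0.75), Foxo4 (-0.62) and Foxo3 (-0.35) at 12 h. FOXO3 is known to activate Bcl2l11, which was higher at both times. Whether FOXO factors had a part in the level of Bcl2l11 here was not tested.

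**Figure D5:**
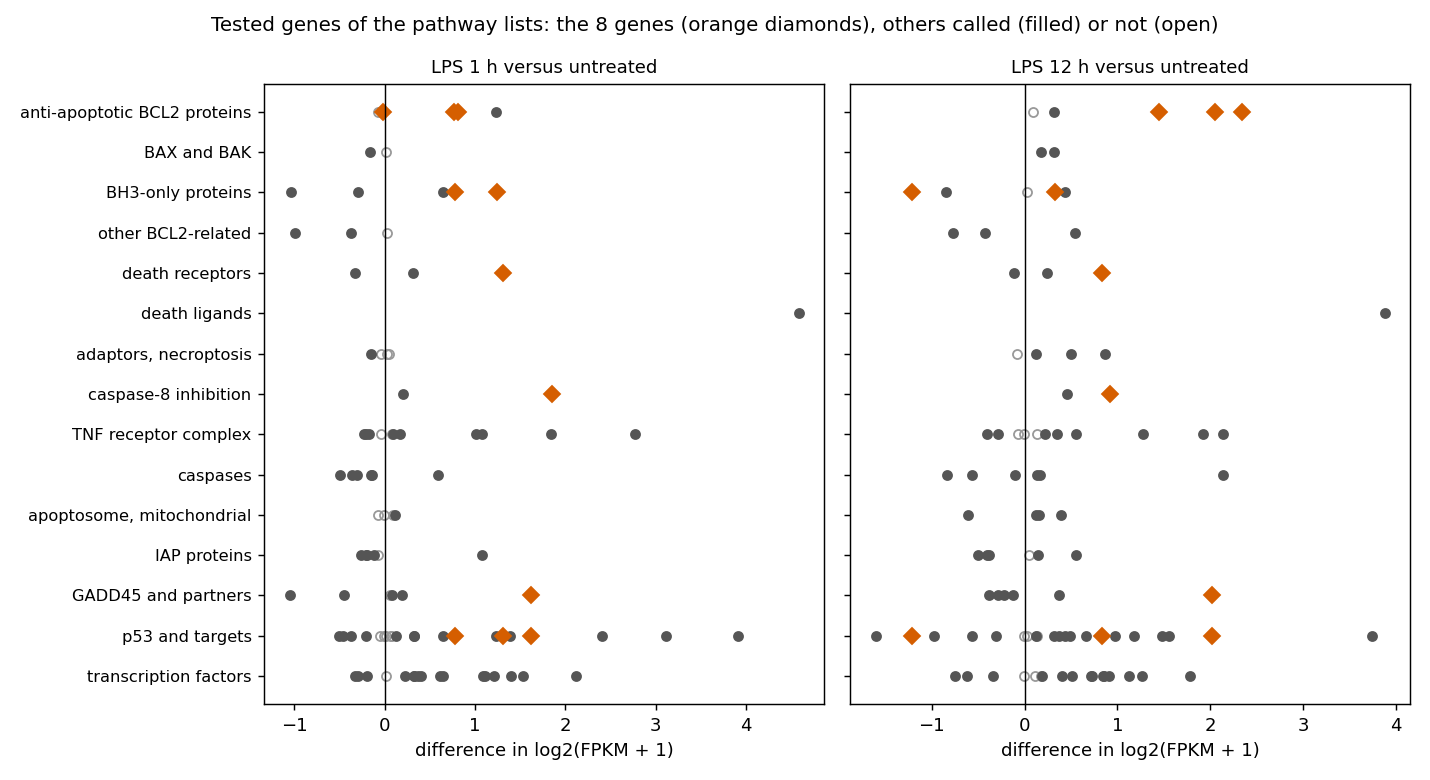
Difference in log2(FPKM + 1) from untreated cells at 1 h (left) and 12 h (right) of LPS for every tested gene of the pathway lists (rows; a gene can stand in several rows). Orange diamonds are the 8 genes, filled circles other genes called by limma and open circles those not called. At 12 h Bcl2a1b, Bcl2a1d and Bcl2l1 lie at 1.45 to 2.34 and Pmaip1 at -1.22. Of the other survival genes, Mcl1 lies at 0.31 and Bcl2l2 (not called) at 0.09.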

How the data were processed

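Per the labels, RNA of BV2 cells was extracted with TRIzol and made into TruSeq Stranded mRNA libraries. The tools in the submitters' processing notes are Trimmomatic, HISAT2, Cufflinks, HTSeq and DESeq, and the genome named there is the human GRCh38; the gene symbols are those of mouse, so which build the FPKM rest on is not known here, and positions come from RefSeq alone. The authors deposited FPKM per gene and library. Per the file headers, each gene has further columns with a p-value, a q-value, a rank score and a flag (1 throughout); how they were computed is not given, and no gene was called from them.

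Linear models of log2(FPKM + 1) with 1 mean per group were fitted to all 9 libraries with limma 3.58.1 in R 4.3.3 (eBayes with trend), over the 5643 genes that averaged 1 FPKM or more (819 left out), with Benjamini-Hochberg adjustment over all of them. The fit was tested on simulated data. The table gives no read counts, so depth is known only in relative terms, from the steps in low FPKM values (1 to 1.17 of untreated library 1), and precision cannot be given from counts. Sequences were compared with Biopython 1.88 in Python 3.11.15. Promoters came from RefSeq (GRCm38.p6), with chromosome 18 left out, and transcripts from GENCODE M21. Windows of 7 of the 8 members were searched, and none of Pmaip1.

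Alternatives were pseudocounts of 0.1 and 0.5, no filter or one at 5 FPKM, quantile normalization or median-of-ratios scaling, no trend in eBayes, fits of only the libraries compared, a replicate block, adjustment over 21878 genes (implied by the deposited ranks), and leaving out each library. Residual correlations between libraries with the same number ran from -0.0666 to 0.128, so the numbers were not taken to pair libraries. The members and lists were chosen with earlier results of these data known. Named genes are the members, the 3 profiles closest to each by root mean square difference, and tested genes of the pathway lists: the largest differences of a list, those against most of it, and further ones chosen after their values were seen.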

Additional observations from a re-analysis of the deposited data

Results flagged for a closer look

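For all 8 genes the difference from untreated cells was not the same at the 2 LPS times, by the test of 12 h against 1 h over all tested genes (limma). The 12 h value minus the 1 h value on the log2 scale was 1.24 for Bcl2a1b, 1.58 for Bcl2a1d, 1.46 for Bcl2l1 and 0.40 for Gadd45a, each higher in 3 of 3 libraries at 12 h. It was -0.94 for Cflar, -0.92 for Bcl2l11, -2.0 for Pmaip1 and -0.47 for Fas, each lower in 3 of 3 libraries at 12 h. Over all tested genes 85.5% were called in that comparison. Pmaip1 was the member whose libraries all lay above the untreated ones at 1 h and all below them at 12 h.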

How the results depend on the processing

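There were 777 alternative values for the members, the summed Bcl2a1 copies, the ratios and the counts of called genes. Of these 777, 775 kept their direction and their side of the threshold, or stayed within the set range. A ratio was kept if it moved by less than its SD, which leaving out 1 of 3 libraries cannot reach, so every ratio had to pass. Counts were kept within a set factor, so 5 members in place of 7 passed. Leaving out a library of the group not compared leaves a log2 difference unchanged. The 775 thus say less than their number. The 2 exceptions were the 1 h difference of Bcl2l1, which was not called: -0.0146 as reported, it was 0.00586 under quantile normalization and 0.0247 without untreated library 3 (-0.052 to 0.0247 over all libraries left out), and the cause was not tested. Fas moved most, to 3.04 at 1 h and 2.27 at 12 h with a pseudocount of 0.1 (1.31 and 0.84 with 1), and its 12 h minus 1 h difference to -0.77. Fas and Gadd45a fall out with a mean FPKM of at least 5, which leaves 5 members higher at 1 h. Without untreated library 1 the mean ratio of Cflar to Fas in untreated cells was 35.8, against 63.2 with it. Under the replicate block, the members called at 1 h were again 7 higher and none lower, at 12 h 7 higher and 1 lower, with 1338 and 1954 genes called at 1 h, and the pairing changed no call of a member. Genes called over the alternatives numbered 1090 to 1453 higher and 1360 to 2147 lower at 1 h. The fragments behind Fas were not estimated.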
